A study of Mus musculus with 8 samples.

Results

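The genes described here are those of oxidative phosphorylation in the mouse nucleus: every gene whose symbol in the array's annotation begins with Nduf, Sdha to Sdhd, Uqcr, Atp5 or Cox4 to Cox8. The rule found 94 of the 18193 named genes on the array, measured by 185 probe sets. Each gene was read from the probe set with the highest mean level over all 8 arrays, and 90 of the 94 passed the filter on low values and were tested among 12520 genes. The prefixes take in assembly factors as well as subunits. A gene of these complexes whose probe set carries several symbols, or whose symbol has another prefix, is not among them.

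Oxidative phosphorylation takes place in the inner membrane of mitochondria. Complexes I and II pass electrons from NADH and succinate to ubiquinone, complex III passes them to cytochrome c and complex IV to oxygen. Complexes I, III and IV pump protons as they do so, and complex V, the ATP synthase, makes ATP from the returning protons. Most subunits are encoded in the nucleus, and assembly factors help to build each complex without staying in it. T cells enlarge their mitochondria and raise both glycolysis and respiration when their antigen receptor is engaged.

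The arrays hold RNA of CD8 T cells, the killer lymphocytes, which were selected on beads from spleens of C57BL/6 mice. For 18 h they shared a culture with marrow-derived dendritic cells, 10 T cells to each, and the dendritic cells were then removed through CD11c. Wild-type cells met dendritic cells without added peptide (WT non-pulsed) or with the ovalbumin peptide N4 (WT N4). Knockout cells met N4-pulsed dendritic cells only. One kind lacked PKCθ, which links the antigen receptor to the transcription factor NF-kB (PKCθ KO N4). The other lacked p50 and cRel, both parts of NF-kB (p50 cRel DKO N4). Each group had 2 arrays, from 100 ng of total RNA each. The sources used here give neither the age of the mice nor their antigen receptor, nor the cells in which the genes were deleted. Since nothing in the labels ties the 2 arrays of a group to separate mice or cultures, p-values reflect the spread between samples, and that spread may be a technical one. In RNA of a whole culture, fewer cells of a type and less RNA per cell cannot be told apart.

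All arrays had been scaled to 1 trimmed mean of 500, and their median signals lay between 33.6 and 70.3. Rel, which encodes cRel, fell by 3.62 on the log2 scale in p50 cRel DKO N4 against WT N4 (limma adjusted p 0.000984). The values of the gene for p50 were not examined here. Prkcq, which encodes PKCθ, differed by -0.66 in PKCθ KO N4 (adjusted p 1.00), and which part of its transcript the probes read is unknown here. The Y-linked genes Eif2s3y, Kdm5d and Uty were lower in both knockout groups than in WT N4 and high on all 4 wild-type arrays, Eif2s3y at 10.65 to 11.20. Xist read between 12.27 and 12.57 on the log2 scale on all 4 knockout arrays, 11.84 on replicate 2 of WT non-pulsed and between 5.18 and 6.65 on the other 3 wild-type arrays, so genotype and these sex-linked transcripts cannot be told apart. Replicate 2 of WT non-pulsed was thus the 1 array high in both Xist and the Y-linked genes. Markers of other cells differed most with N4. All 14 B cell markers tested, 22 of 27 dendritic cell and macrophage markers and all 10 neutrophil markers fell in WT N4 against WT non-pulsed. The summed signal of the B cell list was 45502.8 to 66168.5 in WT non-pulsed and 1161.78 to 3925.89 in WT N4, that of the dendritic cell and macrophage list 136509 to 168025 and 16511.1 to 31049.4, and that of the neutrophil list 33159.3 to 33869.9 and 600.013 to 1976.7. Of the 6 CD8 T cell markers tested, Cd8a and Cd2 rose and the other 4 did not pass the test, with a summed signal of 29432.1 to 30312.3 and 32111.9 to 34277.1. The part of these cells in the differences below was not tested.

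The probe sets of the oxidative phosphorylation genes were bright ones, which describes their signal and not the abundance of their transcripts, since probes differ. On the scale used throughout, log2(signal + 16), the median level of the 90 tested was 12.60, against 9.11 over all genes tested, and 64 of the 90 (71.1%) lay in the top 10% of levels. The highest array signal of any of them was 21979.6, below the highest of any probe set on the arrays, 28993.7. The 4 genes under the filter of 5.38 were Cox8b (mean level 4.27), Cox7b2 (4.27), Ndufa4l2 (4.72) and Ndufb4 (5.36). Just above it lay Cox7a1 (5.61), Cox4i2 (5.78), Cox6a2 (6.28) and Cox6b2 (6.46), all isoforms of subunits known for restricted tissues such as heart, skeletal muscle, lung or testis. Across these genes the 2 arrays of a group correlated at r between 0.985 and 0.994, as a description, with a median difference between replicates of 0.24 in WT non-pulsed, 0.19 in WT N4, 0.09 in PKCθ KO N4 and 0.29 in p50 cRel DKO N4.

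Promoters of 2 genes are shown because the genes moved in opposite directions with N4 while both hold the same short motif. RefSeq promoters of assembly GRCm38.p6, from 250 bases before to 50 bases after the start, matched 78 of the 94 genes. They were searched on both strands for GCGCATGC, the motif of NRF1, a transcription factor of many nuclear genes for mitochondrial proteins, and for CCGGAAGT of the ETS family with GABP, AAGATGGC of YY1 and TCAAGGTCA of ERR alpha. The NRF1 letters stood in 11 of the 78 genes (14.1%) against 3.05% of all 27025 genes in the table, the YY1 letters in 10 (12.8%) against 3.19%, the ETS letters in 5 (6.41%) against 4.31%, and the ERR alpha letters in 2 (2.56%) against 0.466%. Among genes matched, the NRF1 letters stood in 2 of 13 that rose with N4, in 1 of 4 that fell and in 8 of 58 that did not pass the test, and the other 3 motifs in none of the 17 that rose or fell. Such a match describes the letters of the window only. The complex I assembly factor Ndufaf4, which rose, held matches 113 and 111 bases before its start that overlap on opposite strands, and another 1 base after its start. The complex I subunit Ndufa6, which fell and was chosen for display after its value was seen, held 1 match 83 bases before its start. Both stretches below run 5′ to 3′ over the 250 bases before the start, chr4:24897833-24898082 on the plus strand and chr15:82354292-82354541 on the minus strand, with the NRF1 letters of either strand in capitals.
Ndufaf4: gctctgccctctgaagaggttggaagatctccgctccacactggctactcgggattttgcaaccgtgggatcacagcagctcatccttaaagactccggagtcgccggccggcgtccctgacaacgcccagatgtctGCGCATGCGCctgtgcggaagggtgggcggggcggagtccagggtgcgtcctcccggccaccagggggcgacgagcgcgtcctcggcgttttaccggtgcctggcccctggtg
Ndufa6: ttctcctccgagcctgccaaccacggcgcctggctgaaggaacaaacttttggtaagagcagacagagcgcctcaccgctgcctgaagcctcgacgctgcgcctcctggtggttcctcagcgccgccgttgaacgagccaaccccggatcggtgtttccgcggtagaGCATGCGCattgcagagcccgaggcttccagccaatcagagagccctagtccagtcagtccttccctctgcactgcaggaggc
Another gene that rose and has the NRF1 letters, the assembly factor Ndufaf5, held them 16 bases after its start.

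The first comparison asks how these genes responded to N4 in wild-type cells. Of the 90 tested, 16 rose and 5 fell in WT N4 against WT non-pulsed, and 69 did not pass the test (limma, adjusted p under 0.05 over all genes, in a model of the 4 groups with no term for the replicate number). Among all genes tested, 17.2% rose and 23.5% fell (40.7% in all). The median difference was 0.22 on the log2 scale against -0.10 for all genes, and 67 of the 90 differences were above 0, against 44.1% of all genes. The counts were 8 and 4 without WT N4 replicate 1, and without WT non-pulsed replicate 2 they were 8 and 3, without WT non-pulsed replicate 1 they were 16 and 3, and without WT N4 replicate 2 they were 14 and 2. Both WT N4 arrays lay above both WT non-pulsed arrays for 40 of the 90 and below both for 7, against 29.3% and 39.1% of all genes.

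**Figure D1:**
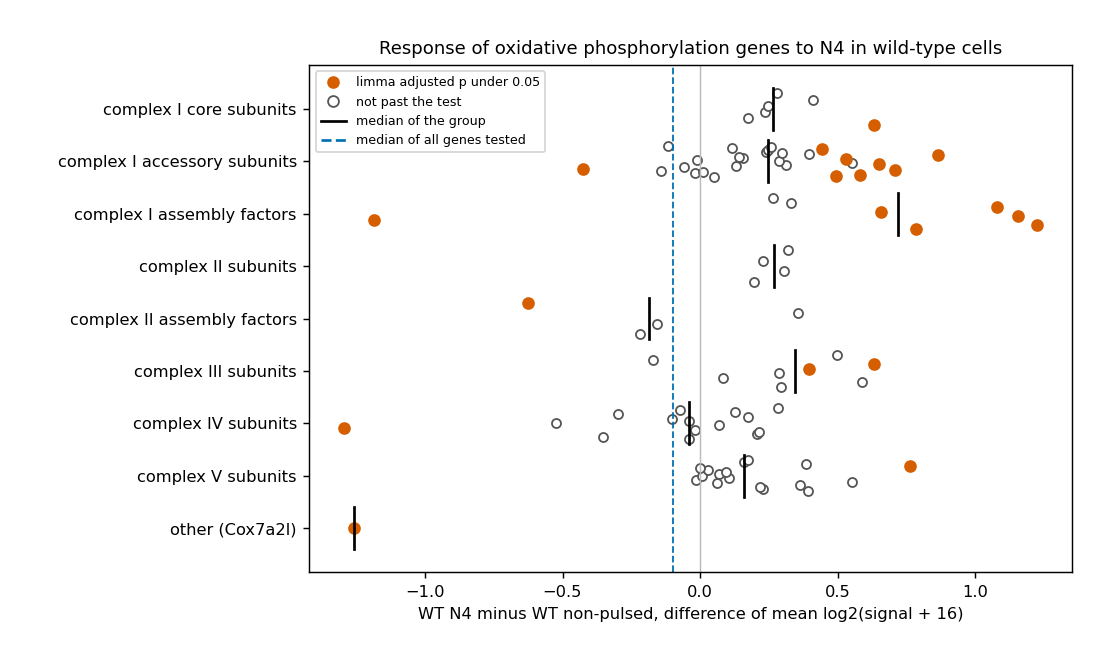
Each point is 1 oxidative phosphorylation gene, placed by its difference WT N4 minus WT non-pulsed in log2(signal + 16) (2 arrays a group), in rows by role; filled points passed limma at an adjusted p under 0.05, black bars are row medians and the dashed line is the median of all genes, -0.10. The complex I assembly factors reach farthest to the right (median 0.72), and complex IV centres near 0 (median -0.04) with Cox6a2 at -1.29.

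These values depend on how the arrays were put on 1 scale. Under quantile normalization the median of all genes was 0.09 and that of the oxidative phosphorylation genes 0.11. This left a gap of 0.02 between them, against 0.32 on the deposited scale. Under median centring the medians were 0.30 and 0.62. Centring moves every gene of an array by the same amount, so it cannot alter the gap. Its gap, again 0.32, therefore does not test whether the gap depends on the scaling. After quantile normalization 15 of the 90 rose and 4 fell, against 21.3% and 19.2% of all genes. After centring 12 rose and 0 fell, against 18.1% and 11.5% of all genes. Differences above 0 numbered 59 and 84 of 90, against 55.6% and 64.7% of all genes. The medians stayed above 0 under all 3 scalings for the subunits of complexes I, II, III and V. Not all stayed above the median of all genes. After quantile normalization the accessory subunits of complex I stood at 0.06 and complex V at 0.05, below the 0.09 of all genes. The complex I core stood at 0.09, complex II at 0.14 and complex III at 0.18. Complex IV had a median of -0.04 on the deposited scale, of 0.01 with quantile normalization and of 0.36 with centring. The complex II assembly factors had medians of -0.19, -0.22 and 0.21. Differences below are on the deposited scale, where the reference shift of all genes is -0.10.

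**Figure D2:**
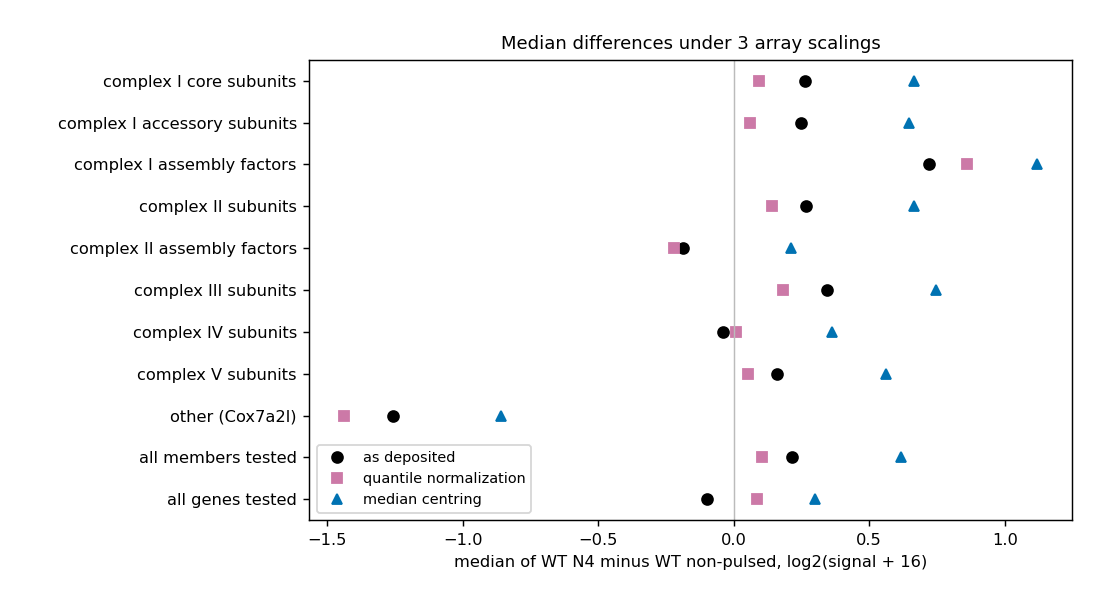
Median difference WT N4 minus WT non-pulsed in log2(signal + 16) for each role, for all 90 oxidative phosphorylation genes tested and for all genes tested, under the deposited scaling (circles), quantile normalization (squares) and median centring (triangles). The complex I assembly factors stay at 0.72 or above under all 3, and the distance between the last 2 rows nearly closes after quantile normalization.

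The factors that assemble complex I gave the largest rises. Of the 8 tested, 5 rose, 1 fell and 2 did not pass the test. Ndufaf2, a factor related to the subunit Ndufa12 that acts late in assembly, read 9.44 and 9.54 in WT non-pulsed, 10.87 and 10.55 in WT N4, 10.73 and 10.63 in PKCθ KO N4, and 10.85 and 10.80 in p50 cRel DKO N4. All 6 arrays with N4 lay above both arrays without it. The rise in WT N4 was 1.22 ± 0.16 (SE), a ratio of 2.34 (limma adjusted p 0.000438).

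Ndufaf4, which works with Ndufaf3 early in assembly, read 10.91 and 11.07 in WT non-pulsed, 12.27 and 12.03 in WT N4, 12.10 and 11.68 in PKCθ KO N4, and 12.09 and 12.17 in p50 cRel DKO N4. Its promoter is the first of those shown above. The WT groups did not overlap, and the rise was 1.15 ± 0.17 (adjusted p 0.000879). Ndufaf6, needed for the membrane part of complex I, read 9.50 and 9.19 in WT non-pulsed, 10.66 and 10.19 in WT N4, 10.59 and 10.51 in PKCθ KO N4, and 10.73 and 10.59 in p50 cRel DKO N4, a rise of 1.08 ± 0.19 (adjusted p 0.00253).

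Ndufaf1 rose by 0.78 ± 0.15 (adjusted p 0.00362) and Ndufaf5, an enzyme that modifies the subunit Ndufs7, by 0.66 ± 0.16 (adjusted p 0.0109). Without WT N4 replicate 1 Ndufaf5 stood at 0.62 with an adjusted p of 0.0634, and without WT non-pulsed replicate 2 at 0.64 with 0.0540. Ndufaf7 (0.33) and Ndufaf8 (0.26) did not pass.

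Ndufaf3, the partner of Ndufaf4, went the other way. It read 10.04 and 9.77 in WT non-pulsed, 8.79 and 8.65 in WT N4, 8.98 and 9.19 in PKCθ KO N4, and 9.02 and 8.83 in p50 cRel DKO N4. Every N4 array was below both arrays without N4, and the fall in WT N4 was -1.18 ± 0.18 (limma adjusted p 0.00121), a ratio of 0.440. Under median centring the difference was -0.78 and missed the threshold (adjusted p 0.0878).

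**Figure D3:**
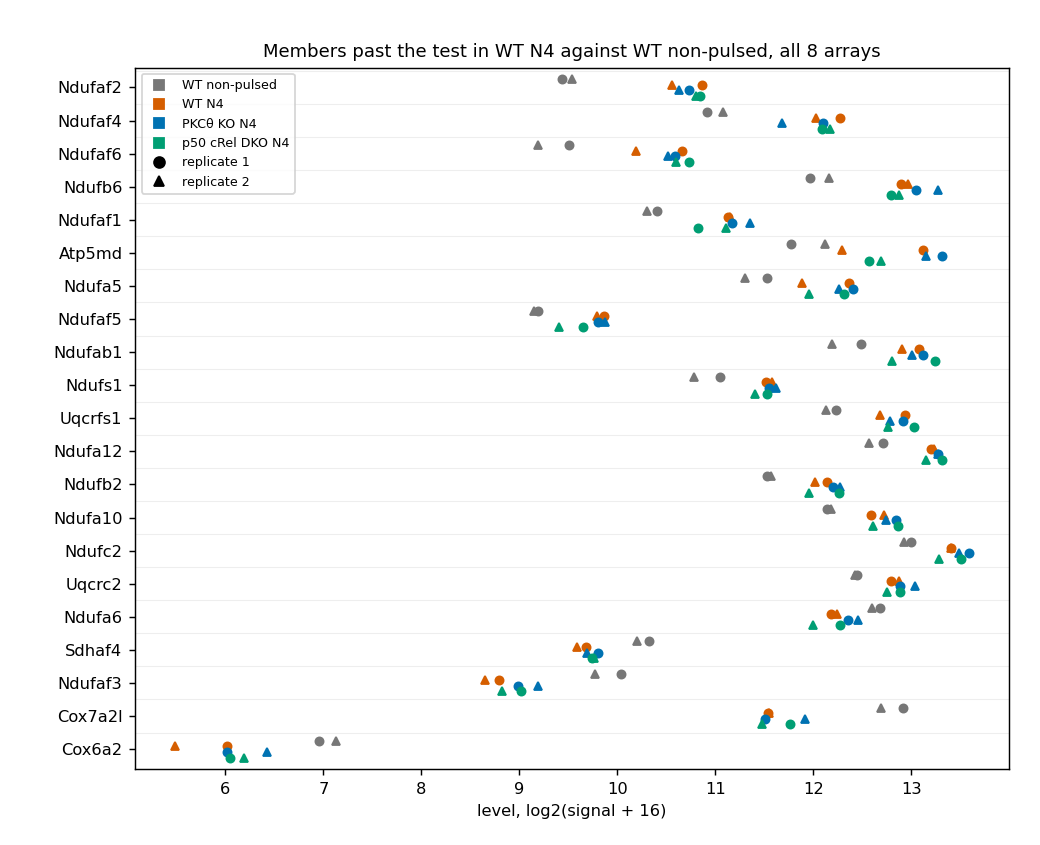
Level in log2(signal + 16) on each of the 8 arrays for the 21 oxidative phosphorylation genes that passed the test in WT N4 against WT non-pulsed, coloured by group, with circles for replicate 1 and triangles for replicate 2. Levels are read along a row and not between rows, since probe sets differ in brightness. The grey WT non-pulsed points stand to the left of both WT N4 points for the 16 genes that rose and to the right for the 5 that fell.

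Among the 6 core subunits of complex I, which carry its electron path, all 6 differences were above 0 on the deposited scale and 1 passed the test. Ndufs1, the largest subunit and a carrier of iron-sulfur clusters, read 11.05 and 10.79 in WT non-pulsed, 11.52 and 11.58 in WT N4, 11.55 and 11.62 in PKCθ KO N4, and 11.52 and 11.41 in p50 cRel DKO N4. Its rise was 0.63 ± 0.14 (adjusted p 0.00676), and without WT non-pulsed replicate 2 it was 0.50 with an adjusted p of 0.0513. The other 5, Ndufv1 (0.41), Ndufv2 (0.28), Ndufs8 (0.25), Ndufs7 (0.23) and Ndufs3 (0.17), did not pass.

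The 27 accessory subunits of complex I tested, which surround the core, gave 7 rises and 1 fall, with a median of 0.25. Ndufb6, a subunit of the membrane arm, read 11.97 and 12.16 in WT non-pulsed, 12.89 and 12.96 in WT N4, 13.05 and 13.27 in PKCθ KO N4, and 12.79 and 12.87 in p50 cRel DKO N4. The WT groups were far apart beside the difference between replicates, and the rise was 0.86 ± 0.13 (limma adjusted p 0.00103). Ndufa12 read 12.71 and 12.56 in WT non-pulsed, 13.20 and 13.23 in WT N4, 13.27 and 13.27 in PKCθ KO N4, and 13.31 and 13.15 in p50 cRel DKO N4, a rise of 0.58 ± 0.12 (adjusted p 0.00440).

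Ndufb2 read 11.52 and 11.57 in WT non-pulsed, 12.14 and 12.01 in WT N4, 12.20 and 12.27 in PKCθ KO N4, and 12.26 and 11.96 in p50 cRel DKO N4. All N4 arrays were again higher, and the rise in WT N4 was 0.53 ± 0.14 (adjusted p 0.0157). The other 4 that rose were Ndufa5 (0.71), Ndufab1 (0.65), the mitochondrial acyl carrier protein, Ndufa10 (0.49) and Ndufc2 (0.44). Among these 7, the 2 that held under every omission of 1 array were Ndufb6 and Ndufa12. Without WT N4 replicate 1, Ndufa5 stood at 0.46 (adjusted p 0.137), Ndufab1 at 0.56 (0.0970), Ndufb2 at 0.47 (0.0994) and Ndufc2 at 0.44 (0.08998). Without WT non-pulsed replicate 2, Ndufa5 stood at 0.59 (adjusted p 0.101), Ndufab1 at 0.50 (0.0980), Ndufb2 at 0.55 (0.0522), Ndufc2 at 0.40 (0.0773) and Ndufa10 at 0.51 (0.0511). Without WT non-pulsed replicate 1, Ndufa10 stood at 0.47 (adjusted p 0.0648) and Ndufb2 at 0.51 (0.0661), and without WT N4 replicate 2, Ndufa10 stood at 0.43 (0.0971) and Ndufc2 at 0.45 (0.0752). After quantile normalization Ndufa10 stood at 0.31 (adjusted p 0.0600). After median centring Ndufa10 stood at 0.89 (0.0517), Ndufab1 at 1.05 (0.0520) and Ndufc2 at 0.84 (0.0778), and without the variance trend Ndufa10 (0.0508) and Ndufc2 (0.0627) did not pass either.

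Ndufa6, whose promoter is the second shown above, was the 1 accessory subunit that fell. It read 12.68 and 12.60 in WT non-pulsed, 12.18 and 12.24 in WT N4, 12.35 and 12.46 in PKCθ KO N4, and 12.27 and 11.99 in p50 cRel DKO N4. The fall was -0.43 ± 0.13 (limma adjusted p 0.0324). Its call was lost when any 1 of the 4 wild-type arrays was left out, with differences between -0.46 and -0.39, and under median centring the difference was -0.03 (adjusted p 0.959). Without the variance trend the adjusted p was 0.0810.

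Many of these genes had further probe sets. Of the 90 genes, 50 had more than 1 above the filter, and of those 83 further probe sets 62 differed in the same direction in WT N4 against WT non-pulsed and 21 in the opposite one. Among the 21 genes that passed, 4 of 19 further probe sets went the opposite way, 1 each of Ndufa10, Ndufa12, Ndufab1 and Ndufb2, at mean levels between 5.38 and 6.86. With the mean of all probe sets of a gene in place of the brightest, these 4 no longer passed: Ndufa10 stood at 0.24, Ndufa12 at 0.31, Ndufab1 at 0.34 and Ndufb2 at 0.19. The brightest probe set of Ndufa12 is of a design that can also read related transcripts, and so are those of Ndufab1 and Ndufc2, which leaves their values uncertain.

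Complex II also works in the citric acid cycle. Its 4 subunits all stood above 0, with a median of 0.27, and none passed the test in limma (1 at an unadjusted p under 0.05): Sdha, which holds the flavin, stood at 0.20, Sdhb, with the iron-sulfur clusters, at 0.31, and the membrane anchors Sdhc at 0.23 and Sdhd at 0.32. Of its 4 assembly factors 1 fell. Sdhaf4, which helps Sdha to join Sdhb, read 10.33 and 10.20 in WT non-pulsed, 9.68 and 9.59 in WT N4, 9.80 and 9.69 in PKCθ KO N4, and 9.74 and 9.76 in p50 cRel DKO N4. Both non-pulsed arrays were above all 6 others, and the fall was -0.63 ± 0.15 (adjusted p 0.00978). Without WT non-pulsed replicate 1 it stood at -0.56 (adjusted p 0.0643), without WT N4 replicate 2 at -0.58 (0.0536) and under median centring at -0.23 (0.608). Sdhaf1 (-0.22), Sdhaf2 (-0.16) and Sdhaf3 (0.35) did not pass.

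Of the 8 complex III subunits that the prefixes take in, which are not all of its subunits, 2 rose, and 7 of the 8 differences were above 0. Uqcrfs1, the Rieske iron-sulfur protein, read 12.23 and 12.12 in WT non-pulsed, 12.94 and 12.68 in WT N4, 12.92 and 12.78 in PKCθ KO N4, and 13.03 and 12.76 in p50 cRel DKO N4. It rose by 0.63 ± 0.15 (limma adjusted p 0.00842), and without WT N4 replicate 1 it stood at 0.50 (adjusted p 0.0727). Uqcrc2, a core protein on the matrix side, read 12.44 and 12.43 in WT non-pulsed, 12.79 and 12.87 in WT N4, 12.89 and 13.04 in PKCθ KO N4, and 12.89 and 12.75 in p50 cRel DKO N4. The rise of 0.40 ± 0.12 (adjusted p 0.0274) was small and was lost when any 1 of the 4 wild-type arrays was left out, with differences between 0.35 and 0.44. It was also lost after quantile normalization, at 0.21 (adjusted p 0.158), after median centring, at 0.80 (0.0688), and without the variance trend (0.0804). Uqcr11 (0.59) and Uqcrq (0.50) were above Uqcrc2 in size but varied more between replicates and did not pass.

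Complex IV showed no rise past the test among its 15 subunits tested, 1 fall, and differences above 0 for 6 and below 0 for 9 on the deposited scale, a split that turned under median centring, where the median was 0.36. Cox6a2, the form of subunit 6a known from heart and skeletal muscle, was the 1 that fell. It read 6.96 and 7.13 in WT non-pulsed, 6.02 and 5.49 in WT N4, 6.02 and 6.42 in PKCθ KO N4, and 6.05 and 6.19 in p50 cRel DKO N4. These are dim signals close to the filter. The fall was -1.29 ± 0.31 (limma adjusted p 0.0106). It stood at -1.21 without WT non-pulsed replicate 2 (adjusted p 0.0627), at -1.03 without WT N4 replicate 2 (0.0616), at -0.81 after quantile normalization (0.1002) and at -0.89 after median centring (0.0815).

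Several complex IV subunits have isoforms, each read on its own probe set, whose levels are not compared with each other. None of them but Cox6a2 passed the test. Cox4i1, the general form of subunit 4, read 13.78 and 13.36 in WT non-pulsed and 13.71 and 13.35 in WT N4 (difference -0.04). Cox4i2, its hypoxia-linked form, read 6.07 and 5.85 in WT non-pulsed and 4.70 and 6.52 in WT N4 (-0.35). The 2 WT N4 arrays of Cox4i2 lay on either side of both WT non-pulsed arrays.

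Cox6a1, the general form of subunit 6a, read 13.84 and 13.56 in WT non-pulsed and 13.70 and 13.67 in WT N4 (-0.02). Cox6b1 read 13.82 and 13.46, then 13.79 and 13.63 (0.07), while the testis form Cox6b2 read 7.09 and 6.96, then 6.14 and 6.87 (-0.52). For Cox6a1 and Cox6b1 the groups overlapped. For Cox6b2 they did not overlap, but its WT N4 arrays were far apart.

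Cox7a2, the general form of subunit 7a, read 14.06 and 13.78 in WT non-pulsed and 14.12 and 14.07 in WT N4 (0.17), and of the alternatives passed after quantile normalization only, at 0.18 (adjusted p 0.0469). The muscle form Cox7a1 read 5.80 and 5.75, then 5.43 and 5.92 (-0.10). Cox8a read 12.61 and 12.38, then 12.68 and 12.56 (0.13), and Cox8c 7.67 and 8.35, then 7.49 and 8.38 (-0.07). Groups overlapped for Cox7a1, Cox8a and Cox8c. Ndufa4, first named as a complex I subunit and since placed in complex IV, read 13.06 and 12.77, then 13.26 and 13.14 (0.28), with no overlap but no call.

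Cox7a2l, related to the subunit 7a forms but not counted as a subunit here, gave the lowest p among the genes that fell. It read 12.91 and 12.69 in WT non-pulsed, 11.54 and 11.54 in WT N4, 11.51 and 11.92 in PKCθ KO N4, and 11.76 and 11.47 in p50 cRel DKO N4. In deposited signal this was 7701.77 and 6573.91 without N4 against 2959.88 and 2966.57 in WT N4. All 6 N4 arrays were lower than both others, and the fall was -1.26 ± 0.17, a ratio of 0.418 (limma adjusted p 0.000685). Its other 2 probe sets stood at -1.26 and -1.61. Under median centring the brightest stood at -0.86 (adjusted p 0.0664).

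Of the 17 complex V subunits 1 passed the test, with a median of 0.16. Atp5md, a small membrane subunit where 2 ATP synthases meet, read 11.77 and 12.12 in WT non-pulsed, 13.12 and 12.30 in WT N4, 13.31 and 13.15 in PKCθ KO N4, and 12.57 and 12.69 in p50 cRel DKO N4. Replicate 2 of WT N4 stood closer to the WT non-pulsed arrays than to replicate 1. The rise was 0.76 ± 0.25 (limma adjusted p 0.0363). It was 0.35 without WT N4 replicate 1 (adjusted p 0.229) and 0.59 without WT non-pulsed replicate 1 (0.173), and leaving out PKCθ KO N4 replicate 1, p50 cRel DKO N4 replicate 1 or p50 cRel DKO N4 replicate 2 moved its adjusted p to 0.0501, 0.0516 and 0.0515. It did not pass after quantile normalization, at 0.59 (adjusted p 0.0835), without the filter on low values (0.0533) or without the variance trend (0.0761).

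The 3 genes for subunit c, the ring through which protons pass, encode 1 mature protein. Atp5g1 read 12.04 and 11.64 in WT non-pulsed and 12.59 and 12.19 in WT N4, a difference of 0.55 ± 0.21 that did not pass (adjusted p 0.0679). Atp5g2 read 13.14 and 12.69, then 12.99 and 12.81 (-0.02), and Atp5g3 13.86 and 13.49, then 13.85 and 13.72 (0.11). The groups overlapped for Atp5g2 and Atp5g3 but not for Atp5g1. Atp5g1 stood at 0.75 without WT non-pulsed replicate 1 and at 0.75 without WT N4 replicate 2. With the replicate number as a block it passed, at 0.55 (limma adjusted p 0.00110), though the labels state no pairing. The catalytic subunits Atp5a1 (0.39) and Atp5b (0.23) did not pass.

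The genes varied together between the 2 arrays of a group. As medians over the 90 genes of each gene's deviation from its own mean over the 8 arrays, WT non-pulsed stood at -0.05 and -0.31, WT N4 at 0.10 and -0.06, PKCθ KO N4 at 0.12 and 0.12, and p50 cRel DKO N4 at 0.20 and -0.10. Replicate 1 was the higher array in both wild-type groups and in the double knockout, and WT N4 replicate 2 stood beside WT non-pulsed replicate 1. For the complex I assembly factors replicate 1 was likewise the higher in both wild-type groups, and both non-pulsed arrays, at -0.47 and -0.53, lay below all 6 N4 arrays, at 0.10 to 0.24. The same order held for the complex I core, at -0.13 and -0.37 against -0.06 to 0.19, and for complex III, at -0.15 and -0.44 against -0.08 to 0.33. For the subunits of complexes II, IV and V and the accessory subunits of complex I the non-pulsed and N4 arrays overlapped.

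**Figure D4:**
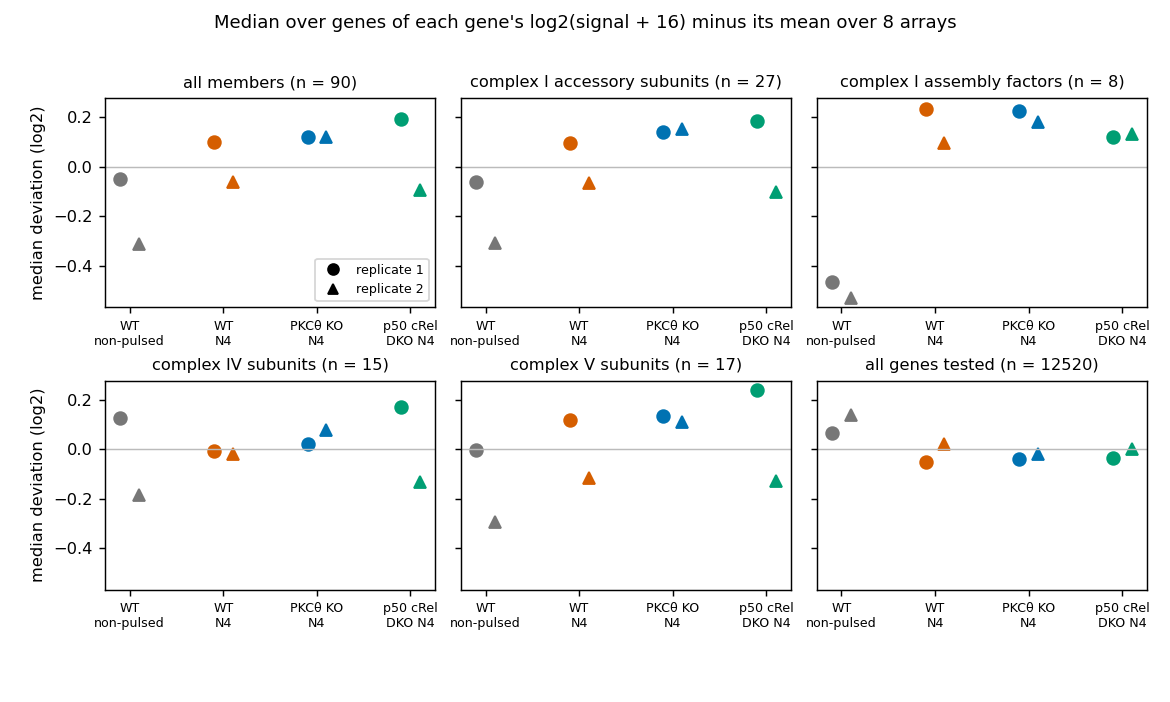
Each point is 1 array: the median, over the genes of a panel, of log2(signal + 16) minus the gene's mean over 8 arrays, for all 90 oxidative phosphorylation genes tested, for 4 roles and for all 12520 genes tested. Circles are replicate 1 and triangles replicate 2. In the panel of the complex I assembly factors both non-pulsed arrays lie below all 6 others, and the p50 cRel DKO N4 arrays stand apart by 0.20 against -0.10 over all 90 genes.

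Other genes that serve oxidative phosphorylation were taken as lists. Of 38 electron carriers and assembly factors tested outside the prefixes 16 rose and 3 fell, with a median of 0.39. In all 50% of this list passed, against 40.7% of all genes, of which 17.2% rose and 23.5% fell. Tmem70, which assembles the ATP synthase, rose by 0.91, the copper chaperone Cox17 by 0.79 and the complex I assembly factor Ecsit by 0.91, while Uqcc3, an assembly factor of complex III, stood at -1.09 and Cox20 and Surf1, of complex IV, at -0.59 and -0.52. Under median centring the list gave 14 rises and 0 falls, where 18.1% of all genes rose and 11.5% fell. Cox17 did not pass with the mean of all probe sets, at 0.32. Cox20 did not pass without WT non-pulsed replicate 2 or WT N4 replicate 2, nor Surf1 without WT non-pulsed replicate 1, WT non-pulsed replicate 2 or WT N4 replicate 2. Over all alternatives Cox20 stood between -0.71 and -0.19 and Surf1 between -0.60 and -0.12.

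Of 26 genes of the citric acid cycle and pyruvate entry 10 rose and 1 fell, with a median of 0.39. In all 42.3% of this list passed, against 40.7% of all genes, of which 17.2% rose. Idh3a, a subunit of isocitrate dehydrogenase, rose by 1.03, the malic enzyme Me2 by 1.14 and Dlat, of pyruvate dehydrogenase, by 1.01, and Pdk2, a kinase that inhibits pyruvate dehydrogenase, fell by 1.98. With the mean of all probe sets Idh3a stood at 0.55 and Me2 at 0.39, and neither passed. Of 7 inner membrane carriers and porins 3 (42.9%) rose and 0 fell: the ADP/ATP carrier Slc25a4 (0.53) and the porins Vdac1 (0.73) and Vdac3 (0.50). None of the 3 passed without WT N4 replicate 1, and Slc25a4 without WT non-pulsed replicate 1 and both porins without WT non-pulsed replicate 2 did not pass either. Over all alternatives Slc25a4 stood between 0.36 and 0.93, Vdac1 between 0.56 and 1.13 and Vdac3 between 0.31 and 0.90.

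Of 19 genes of mitochondrial biogenesis and mitochondrial DNA expression 2 rose (10.5%, against 17.2% of all genes) and 0 fell, with a median of 0.10. The 2 were the coactivator Pprc1, by 1.07, and Tfam, which packs mitochondrial DNA, by 0.40. Tfam did not pass under 9 alternatives, among them the omission of any 1 of the 4 wild-type arrays, and stood between 0.28 and 0.80. Leaving out 1 array moved these counts of rises. Without WT N4 replicate 1 they were 7 of 38, 5 of 26, 0 of 7 and 1 of 19, and without WT non-pulsed replicate 2 they were 9, 5, 1 and 1. Without WT N4 replicate 2 they were 12, 6, 3 and 1, and without WT non-pulsed replicate 1 they were 10, 8, 3 and 1. In none of the 3 comparisons between genotypes did a gene of these 4 lists pass the test in limma, with at most 2 of a list at an unadjusted p under 0.05.

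The next comparison asks whether loss of PKCθ altered these genes in cells that met N4. None of the 90 passed the test in PKCθ KO N4 against WT N4, and none had an unadjusted p under 0.05 in limma, where 0.024% of all genes passed. The differences were small and mostly of 1 sign: 80 of 90 were above 0, with a median of 0.11 against -0.02 over all genes. Both PKCθ KO N4 arrays lay above both WT N4 arrays for 35 of the 90 and below both for 0, against 11.5% and 14.3% of all genes. After quantile normalization 67 of 90 were above 0, with a median of 0.06. Without WT N4 replicate 2 the median was 0.03 and without WT N4 replicate 1 it was 0.18. The summed signal of the CD8 T cell markers was 44338 to 44570.8 in PKCθ KO N4 against 32111.9 to 34277.1 in WT N4, and its part in these differences was not tested.

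The 5 genes with the lowest p, none past the test (adjusted p 1.00 in limma), were of complex I or V. Ndufs8, an iron-sulfur subunit, read 12.72 and 12.83 in WT N4 and 13.06 and 13.15 in PKCθ KO N4, a difference of 0.33 ± 0.16. Atp5md stood at 0.52 ± 0.25, Ndufaf3 at 0.36 ± 0.18 and Ndufb6 at 0.23 ± 0.13, with no overlap between the groups for these 4. Ndufaf4 stood at -0.26 ± 0.17, and its groups overlapped. Without WT N4 replicate 1 Atp5md stood at 0.93 in this comparison, and without WT N4 replicate 2 at 0.11.

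**Figure D5:**
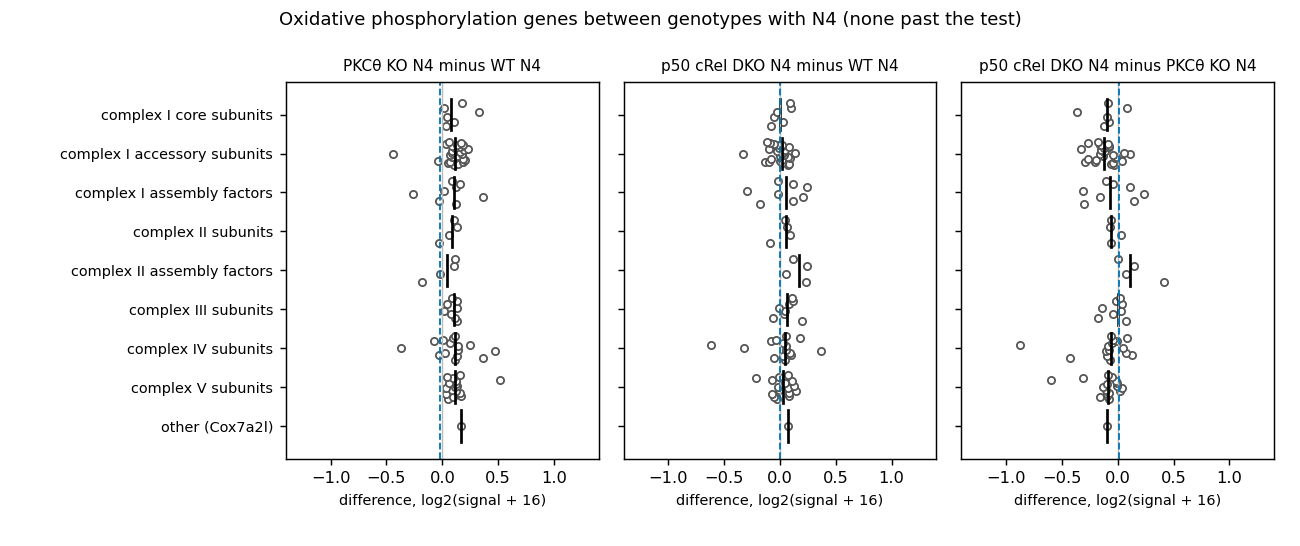
Differences in log2(signal + 16) between genotypes that all met N4, 1 point for each of the 90 oxidative phosphorylation genes tested, in rows by role, with black bars for row medians and a dashed line for the median of all genes. None of the points passed limma at an adjusted p under 0.05. Points sit mostly to the right of 0 in PKCθ KO N4 minus WT N4 (median 0.11), around 0 in p50 cRel DKO N4 minus WT N4 (0.03) and mostly to the left in p50 cRel DKO N4 minus PKCθ KO N4 (-0.08); the 3 panels share arrays.

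Loss of p50 and cRel was compared with WT N4 in the same way. None of the 90 passed the test, where 0.248% of all genes rose and 0.272% fell (0.519% in all), and limma gave none of them an unadjusted p under 0.05. The median difference was 0.03 against -0.0019 for all genes, 55 of 90 were above 0, and both p50 cRel DKO N4 arrays lay above both WT N4 arrays for 7 genes and below both for 3, against 15.3% of all genes each way. After quantile normalization the median was -0.0025, with 44 above 0 and 46 below. Without p50 cRel DKO N4 replicate 1 it was -0.12 and without replicate 2 it was 0.18, and without WT N4 replicate 1 and 2 it was 0.11 and -0.044, so its sign changed with the scaling and with the arrays kept. The lowest p belonged to Ndufaf5, which read 9.86 and 9.79 in WT N4 and 9.65 and 9.41 in p50 cRel DKO N4, a difference of -0.30 ± 0.16 (adjusted p 0.973). Cox7a1 stood at -0.62 ± 0.42, Sdhaf3 at 0.25 ± 0.20, Ndufaf6 at 0.24 ± 0.19 and Cox6a2 at 0.37 ± 0.31, each at an adjusted p of 1.00.

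The knockouts were also set against each other, which uses the same knockout arrays again. None of the 90 passed in p50 cRel DKO N4 against PKCθ KO N4, where 0.24% of all genes rose and 0.192% fell (0.431% in all), and limma gave 3 an unadjusted p under 0.05. The median was -0.08, 68 of 90 were below 0, and both p50 cRel DKO N4 arrays lay above both PKCθ KO N4 arrays for 3 genes and below both for 16, against 18.3% and 15.7% of all genes. Without p50 cRel DKO N4 replicate 1 the median was -0.22 and without replicate 2 it was 0.08, so its sign rests on replicate 2. Ndufb6, at 13.05 and 13.27 in PKCθ KO N4 and 12.79 and 12.87 in p50 cRel DKO N4, stood at -0.33 ± 0.13 (adjusted p 0.634). Atp5md stood at -0.59 ± 0.25 (0.665), Ndufs8 at -0.36 ± 0.16 (0.681), Cox7a1 at -0.87 ± 0.42 (0.761) and Ndufa6 at -0.27 ± 0.13 (0.779).

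Each knockout with N4 was finally set against WT non-pulsed, whose arrays these comparisons share with that of WT N4. In PKCθ KO N4 29 of the 90 rose and 3 fell, against 16.5% and 24% of all genes (40.6% in all), with a median of 0.31 against -0.13 for all genes. In p50 cRel DKO N4 20 rose and 5 fell, against 16.5% and 22.8% of all genes (39.3% in all), with a median of 0.20 against -0.12 for all genes. After quantile normalization 19 rose and 2 fell in PKCθ KO N4, against 20.5% and 19.1% of all genes, with a median of 0.16 against 0.083. In p50 cRel DKO N4 17 rose and 4 fell, against 20.5% and 18.8% of all genes. The median there, 0.055, was below the 0.083 of all genes. After median centring 18 and 12 rose, against 17.3% and 16.8% of all genes, and 0 fell, against 11.7% and 11.5%. The medians were 0.72 and 0.59 against 0.28 for all genes in both. Without WT non-pulsed replicate 2 the genes that passed numbered 16 in PKCθ KO N4 and 11 in p50 cRel DKO N4, with medians of 0.16 and 0.081. They numbered 21 and 18 without PKCθ KO N4 replicate 1 and 2, and 10 without p50 cRel DKO N4 replicate 1. Both arrays lay above both WT non-pulsed arrays for 59 genes and below both for 8 in PKCθ KO N4, against 28.1% and 40.7% of all genes, and for 40 and 9 in p50 cRel DKO N4, against 29.6% and 40.9%.

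The genes with the lowest p in these comparisons were again complex I assembly factors, Ndufb6 and Cox7a2l. In PKCθ KO N4, Ndufb6 rose by 1.10 ± 0.13, Ndufaf2 by 1.19 ± 0.16, Ndufaf6 by 1.21 ± 0.19 and Ndufaf1 by 0.91 ± 0.15, and Cox7a2l stood at -1.09 ± 0.17 (limma adjusted p 0.000340 to 0.00175). In p50 cRel DKO N4, Ndufaf2 rose by 1.34 ± 0.16, Ndufaf6 by 1.32 ± 0.19, Ndufaf4 by 1.13 ± 0.17 and Ndufb6 by 0.77 ± 0.13, and Cox7a2l stood at -1.18 ± 0.17 (adjusted p 0.000307 to 0.00196). Under median centring Cox7a2l stood at -0.68 (adjusted p 0.137) and -0.79 (0.0891) in these 2 comparisons and did not pass. By role, 6 of 8 complex I assembly factors rose in PKCθ KO N4 and 4 of 8 in p50 cRel DKO N4, with 1 fall each, Ndufaf3. Complex IV had 0 rises in either among 15 subunits, with 4 and 2 at an unadjusted p under 0.05 in limma. It had 1 fall, of the dim Cox6a2 (-0.93), in p50 cRel DKO N4 and 0 in PKCθ KO N4. Complex V had rises in 5 and 1 of 17.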

How the data were processed

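RNA was read on 8 one-colour Affymetrix mouse arrays, 2 for each of 4 groups taken from the sample titles; an array whose title has no number was taken as replicate 1. The authors deposited intensity values, 1 linear signal per probe set; the submitters' processing notes name GCOS 1.4 and MAS5, and every array had a 2% trimmed mean of 500. Depth does not apply to arrays, and their number limits the precision. Of 45101 probe sets, 64 controls were left out. The platform annotation gave 1 symbol for 34945 probe sets and several for 932, which were not named, and 9160 are unnamed here; for 34741 the symbol was brought up to date through the Entrez identifier with RefSeq GRCm38.p6. Values were transformed as log2(signal + 16), and probe sets with a mean under the 40th percentile (5.38) were left out, which kept 27022. Each gene was read from its brightest probe set. All arrays entered 1 model with a coefficient per group in limma 3.58.1 under R 4.3.3 (lmFit and eBayes, trend on, with 4 degrees of freedom left over), adjusted by Benjamini-Hochberg over 12520 genes and called at 0.05. The script was tested on simulated data. Differences are on the log2(signal + 16) scale, which understates those of dim genes.

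The genes, lists, markers and motifs were chosen with earlier results of these data known. Genes given in full were, with N4 in wild-type cells, up to 3 that passed in each direction per role with the lowest p, in other comparisons the 5 with the lowest p, and all isoform families. Of other lists the 3 with the lowest p that passed in each direction are named. Ndufaf1, Ndufaf5 and other genes are given in part only.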

Additional observations from a re-analysis of the deposited data

How the results depend on the processing

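Under 17 alternatives, tried 1 at a time, the number of genes that passed in each of the 3 comparisons between genotypes stayed at 0. The rises in WT N4 against WT non-pulsed (16) numbered between 8 and 18 when 1 array was left out, with 8 without WT N4 replicate 1 and 8 without WT non-pulsed replicate 2, and the falls (5) between 2 and 5, with 3 without either WT non-pulsed array and 2 without WT N4 replicate 2; median centring left 0 falls. Those that passed in PKCθ KO N4 against WT non-pulsed (32) numbered 21 after quantile normalization, 18 after median centring, 21 without the variance trend, and between 16 (without WT non-pulsed replicate 2) and 35 when 1 array was left out, with 21 and 18 without PKCθ KO N4 replicate 1 and 2. Those in p50 cRel DKO N4 against WT non-pulsed (25) numbered 12 after median centring and between 10 (without p50 cRel DKO N4 replicate 1) and 23, with 11 without WT non-pulsed replicate 2. With the replicate number as a block the counts were 30 rises, which held all 16, then 51 and 40, and Atp5g1 passed at 0.55 (adjusted p 0.00110). Over all genes 6401 passed in WT N4 against WT non-pulsed with the block, against 5101 without it. Fewer of all genes passed there when any 1 of the 4 wild-type arrays was left out. Deviations of equal-numbered arrays correlated between 0.25 and 0.58 over pairs of groups, but with 2 numbers a comparison and no statement in the labels the numbers were not taken as a pairing. Ndufb6, Ndufaf1, Ndufaf2, Ndufaf4 and Ndufaf6 passed under all 17 alternatives. Over all 90, differences above 0 in WT N4 against WT non-pulsed numbered 67 on the deposited scale, 59 after quantile normalization and 84 after median centring. Signs of single genes were followed only for those that passed and for the isoform families. Among these, signs turned only for isoforms that did not pass. Under median centring they turned for Cox4i1 (0.36), Cox4i2 (0.048), Cox6a1 (0.38), Cox7a1 (0.30), Cox8c (0.33) and Atp5g2 (0.38). After quantile normalization they turned for Cox6b2 (0.0037), Cox7a1 (0.21), Cox8a (-0.059) and Cox8c (0.40). With the mean of all probe sets they turned for Cox6a1 (0.068), Cox8a (-0.32) and Cox8c (0.088). With 1 array left out, differences ran from -0.25 to 0.17 for Cox4i1, -1.26 to 0.56 for Cox4i2, -0.16 to 0.12 for Cox6a1, -0.11 to 0.25 for Cox6b1, -0.35 to 0.15 for Cox7a1, -0.51 to 0.37 for Cox8c, -0.24 to 0.21 for Atp5g2 and -0.081 to 0.29 for Atp5g3. The cause of these turns was not tested. Dim probe sets, such as those of Cox4i2, Cox6a2, Cox6b2 and Cox7a1, limit what can be measured.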
